A study of Mus musculus with 78 samples.

Results

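Flank skin of athymic nude mice that had received an adenovirus coding for vascular endothelial growth factor A (Ad-VEGF-A164) was compared between day 60 and day 20, in sites that were given no antibody. The 16 arrays were chosen by their labels alone, 8 at day 60 and 8 at day 20, out of 78 arrays in the series. All mice were females of 4 to 6 weeks of the strain Crl:NU(NCr)-Foxn1nu, and the virus was injected intradermally in 50 μl into the flank, with a further injection into the ears of the same animals. The arrays used beside them were 8 of control flank tissue labelled day 0, 8 of untreated sites at day 5, 8 and 8 of sites from mice given 10 mg/kg of the antibody G6 at day 20 and day 60, and 8 and 6 of sites from mice given 20 mg/kg of the antibody DC101 at the same days. The series text describes both antibodies as directed at VEGF receptors, and their targets were not checked here.

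Several features limit these groups as a model. The Foxn1nu allele, carried by every group including the controls, removes a transcription factor needed for the thymus and for the hair shaft, so that nude mice are poor in T cells and lack a normal coat. There was no arm with an empty adenovirus in the arrays used here. The labels give the same age of 4 to 6 weeks for every group, whatever its day. They do not say whether this was the age at collection. Mice of day 60 may thus have been older than those of day 20, and day and age cannot be told apart. The labels do not say from which event the days were counted, and they do not tie arrays to animals. The series text gives at least 5 animals per group, fewer than the 8 arrays. If several arrays came from 1 animal, the p-values below are too small. Because whole tissue was profiled, fewer cells of a type and less RNA per cell cannot be told apart.

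VEGF-A acts on endothelial cells through the receptors Kdr (VEGFR2) and Flt1 (VEGFR1). A local excess first gives wide, thin-walled vessels with sprouting endothelium, and vessels that persist gain a coat of pericytes and smooth muscle and a basement membrane. Endothelial genes are commonly driven by transcription factors of the ETS family, which read a core of GGAA, and rhythmic genes of the circadian clock by CLOCK and BMAL1, which read the E-box CACGTG.

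RNA was measured on Affymetrix Mouse Genome 430 2.0 arrays. Signals are given on the scale log2(signal + 16), so that a difference of 1 is a doubling and changes of dim genes are understated. The markers of the labelled tissue were present in both groups: the keratinocyte gene Krt14 had a median of 14.62 at day 20 and 15.19 at day 60, and the endothelial cadherin gene Cdh5 medians of 13.17 and 10.34. Skeletal muscle was also in the samples, with the muscle actin gene Acta1 at medians of 16.26 and 16.39. Arrays 51 and 52 of day 20 stood apart, with the lowest hair gene levels of the 16 and the highest vessel gene levels, and they deviated together from their group mean (r = 0.59 over all genes tested). Arrays 53 and 54 of the same group did so too (r = 0.50), and the other neighbours had an r of 0.19 or below. At day 60, array 75 was low in hair genes, array 77 high in vessel genes and array 79 low in skeletal muscle genes. The ratio of 3′ to 5′ signal of Actb, a measure of RNA integrity, ranged from 1.32 to 1.68 at day 20 and from 1.58 to 2.57 at day 60, and that of Gapdh from 0.778 to 0.925 and from 0.834 to 1.02. These ratios moved with the day, and their part in the results below was not tested beyond a fit that holds them as covariates.

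Of 14718 genes tested, 3776 (25.7%) differed between day 60 and day 20 at an adjusted p below 0.05 (limma, Benjamini-Hochberg). At day 60, 2018 (13.7%) were lower and 1758 (11.9%) higher. The changes of at least 2-fold were 474 lower (3.22%) and 383 higher (2.6%). The groups did not overlap at all for 440 genes (2.99%), of which 277 (1.88%) were lower and 163 (1.11%) higher at day 60. The 857 changes of at least 2-fold became 386 without arrays 51 and 52, and 554 without array 52 alone. Leaving out arrays 51 and 52 left 1929 genes called (13.1%), 1232 of them lower (8.37%) and 697 higher (4.74%). The 12 largest falls and the 12 largest rises behaved differently in this respect: 12 of 12 falls were still called and 0 of 12 rises. Those falls were of vessel genes for the most part, and the rises of hair genes.

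Promoter sequences are shown for 4 endothelial genes that fell, because the letters of an ETS site recur there, and for 2 clock genes that fell, because an E-box does. Each is the 250 bases before a start site of RefSeq (GRCm38.p6), 5′ to 3′ along the gene's own strand, with the matched letters in capitals. The ETS letters searched were CAGGAAG and CCGGAAG on both strands, so that CTTCCTG is a match on the opposite strand. Ushbp1 lies at chr8:71395802-71396051, minus strand. Egfl7 (first of 3 starts) lies at chr2:26580833-26581082, Robo4 at chr9:37401722-37401971 and Adgrf5 (first of 2 starts) at chr17:43360181-43360430, all on the plus strand. Per1 (first of 2 starts) lies at chr11:69098699-69098948 and Tef (first of 2 starts) at chr15:81802423-81802672, on the plus strand as well.
Ushbp1: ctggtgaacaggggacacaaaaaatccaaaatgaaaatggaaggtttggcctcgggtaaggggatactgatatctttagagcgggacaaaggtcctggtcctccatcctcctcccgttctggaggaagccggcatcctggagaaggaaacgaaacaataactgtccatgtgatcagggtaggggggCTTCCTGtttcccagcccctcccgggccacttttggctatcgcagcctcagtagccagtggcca
Egfl7: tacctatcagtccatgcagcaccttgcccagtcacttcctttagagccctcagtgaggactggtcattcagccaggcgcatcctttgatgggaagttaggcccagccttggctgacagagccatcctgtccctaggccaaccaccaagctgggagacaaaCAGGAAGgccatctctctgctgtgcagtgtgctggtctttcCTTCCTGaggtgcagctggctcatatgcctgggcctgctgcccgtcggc
Robo4: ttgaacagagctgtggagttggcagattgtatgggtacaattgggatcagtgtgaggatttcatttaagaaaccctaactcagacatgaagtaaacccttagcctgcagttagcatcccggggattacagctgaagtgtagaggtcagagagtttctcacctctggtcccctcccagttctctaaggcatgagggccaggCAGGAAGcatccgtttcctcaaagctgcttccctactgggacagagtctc
Adgrf5: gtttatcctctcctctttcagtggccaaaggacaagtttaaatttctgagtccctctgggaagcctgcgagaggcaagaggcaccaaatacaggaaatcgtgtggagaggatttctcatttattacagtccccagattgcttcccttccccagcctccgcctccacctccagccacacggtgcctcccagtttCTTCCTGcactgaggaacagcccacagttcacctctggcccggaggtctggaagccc
Per1: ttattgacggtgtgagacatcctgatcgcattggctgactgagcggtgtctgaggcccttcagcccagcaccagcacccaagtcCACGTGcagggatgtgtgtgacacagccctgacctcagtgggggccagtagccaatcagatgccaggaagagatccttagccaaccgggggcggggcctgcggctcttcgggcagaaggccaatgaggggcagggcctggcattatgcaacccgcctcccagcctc
Tef: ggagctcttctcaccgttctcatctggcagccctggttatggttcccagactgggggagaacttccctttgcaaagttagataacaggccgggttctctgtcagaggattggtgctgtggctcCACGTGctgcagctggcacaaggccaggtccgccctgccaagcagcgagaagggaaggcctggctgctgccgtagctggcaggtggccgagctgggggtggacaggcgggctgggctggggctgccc

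An ETS match lay in a promoter of 9 of the 14 pan-endothelial genes that have a RefSeq promoter entry (64.3%), namely Ushbp1, Emcn, Cd34, Egfl7, Robo4, Adgrf5, Rasip1, Cyyr1 and Stab1. Over all tested genes with an entry the share was 24.3% (2867 of 11790), over those at least 2-fold lower at day 60 it was 22.8% (74 of 324), and over those at least 2-fold higher 13.5% (37 of 275). Among tip cell genes it was 22.7% (5 of 22). Cd34, which holds a match, was among the members of its list that did not pass the test, and matches were no more frequent among genes with large falls than among all genes. These shares were not tested. The E-box was found in 5 of 15 clock genes (33.3%), Per1, Cry1, Tef, Bhlhe41 and Ciart, against 9.36% of all tested genes with an entry. Of these holders only Per1 and Tef were called as falls. Dbp, Per3, Nr1d1 and Nr1d2, which fell further than Per1 and Tef, had no E-box match. Among genes at least 2-fold lower at day 60 the E-box share was 7.1% (23 of 324), and these shares were not tested either. GC content was 54.9% in the pan-endothelial promoters, 67.5% in those of the clock genes and 59.1% overall. A match is a run of letters and not a measured site.

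The ligand and its receptors fell together. Vegfa, the ligand carried by the virus, was read by a probe set whose levels at day 20 ran from 10.89 through a median of 12.56 to 14.72, and at day 60 from 9.73 through 10.07 to 10.62. No day 60 array reached the lowest of day 20, and the day 60 mean of 10.10 lay near the control mean of 10.12. The difference was -2.69 ± 0.39 (SE; adjusted p = 1.1e-07, limma) and -2.06 without arrays 51 and 52. A further Vegfa probe set read means of 10.29 and 10.60, a difference of 0.31 (adjusted p = 0.203), so the probe sets for this gene disagreed. Vegfa RNA from the virus and from the host cannot be told apart in these signals.

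Flt1, which binds VEGF-A tightly and signals weakly, was at 10.99, 12.32 and 13.62 (lowest, median and highest) at day 20 and at 8.82, 9.66 and 10.82 at day 60. Kdr, the main signalling receptor, was at 11.05, 12.26 and 13.83 and then at 9.89, 10.33 and 10.90. In neither gene did the groups overlap. The difference was -2.60 ± 0.30 (SE; adjusted p = 3e-10) for Flt1 and -2.09 ± 0.26 (adjusted p = 3.4e-09) for Kdr. The 3 other Flt1 probe sets fell as well, at -2.66, -3.06 and -2.18. Of the 10 tested members of this pathway 7 fell and 0 rose, the others being the lymphatic receptor Flt4, the ligands Vegfc and Pgf and the co-receptor Nrp1. Vegfb, Vegfd and Nrp2 did not pass the test, at -0.26, -0.16 and -0.07.

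**Figure D1:**
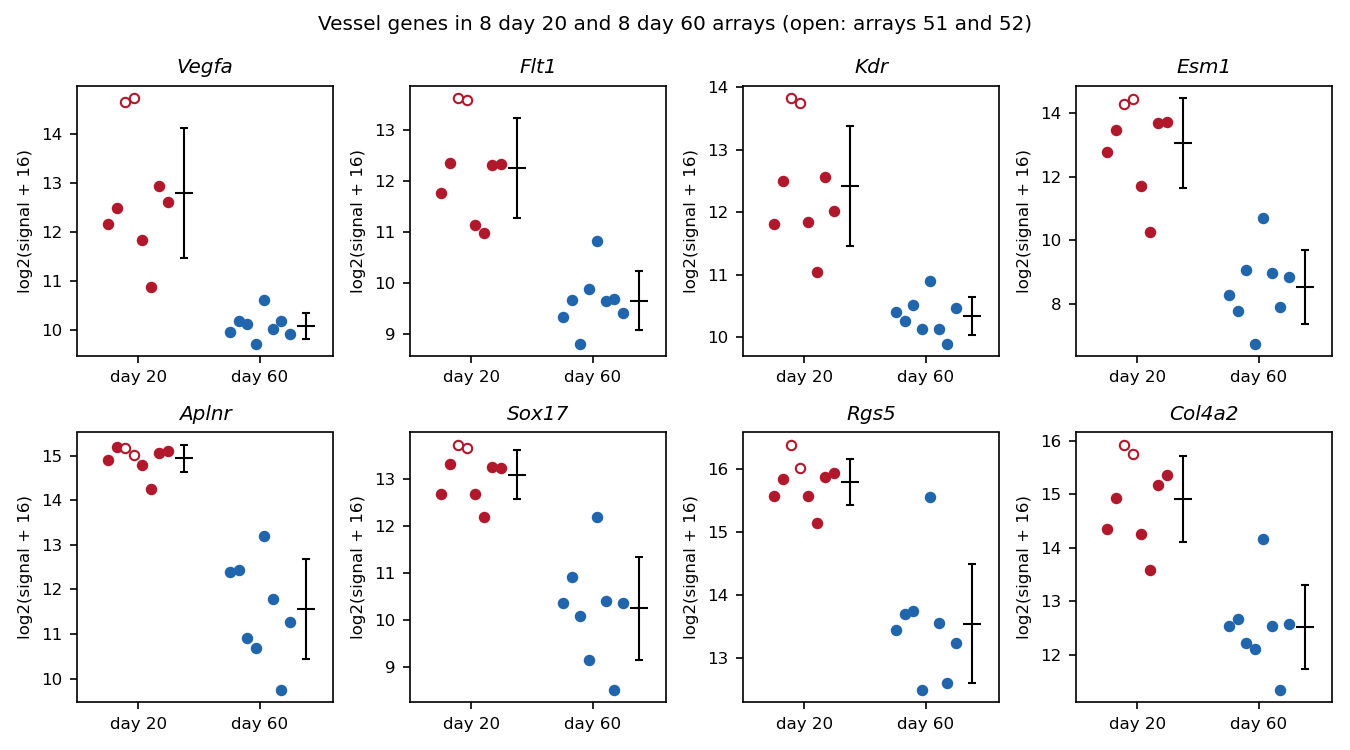
Levels of 8 vessel genes on each of the 16 arrays, as log2(signal + 16), with bars for the mean ± SD of 8 arrays and open points for arrays 51 and 52. The day 60 points lie below all day 20 points for Vegfa, Flt1, Kdr, Aplnr and Sox17, while for Esm1, Rgs5 and Col4a2 the highest day 60 array lies inside the day 20 range.

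Genes expressed along the whole endothelium were lower at day 60 in 28 of 30 tested members, with a median difference of -2.17 beside 0.016 over all genes. Leaving out arrays 51 and 52 gave a count of 28 as well, and the fit holding the RNA ratios gave 27. Ushbp1 was at 9.92, 11.08 and 12.03 at day 20 and at 5.37, 6.88 and 9.52 at day 60, a separation of all arrays and a difference of -3.91 ± 0.41 (SE; adjusted p = 2.2e-11). Egfl7, a matrix protein secreted by endothelium, was at 12.08, 13.24 and 14.01 and then at 9.33, 10.30 and 11.85. It too separated, with a difference of -2.86 ± 0.27. The junction gene Cdh5 fell by 2.71, the guidance receptor gene Robo4 by 2.17 and the adhesion receptor gene Adgrf5 by 2.18. Separation held for 8 of the 30.

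The endothelial genes Vwf and Cd34 did not follow. Vwf, the clotting glycoprotein stored in endothelial granules, was at 10.17, 10.87 and 11.80 at day 20 and at 8.27, 10.41 and 12.31 at day 60, so that the day 60 arrays spanned a wider range on both sides. Its difference was -0.54 ± 0.30 (adjusted p = 0.19). Cd34, a surface sialomucin also made by dermal fibroblasts and stem cells, was 0.42 ± 0.20 higher (adjusted p = 0.11).

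Among the 12 largest falls were several endothelial surface proteins and regulators. Fam167b was at 9.20, 11.08 and 12.82 at day 20 and at 5.29, 6.24 and 8.95 at day 60, with no overlap and a difference of -4.43 ± 0.50 (adjusted p = 1.4e-10). Hlx, a homeobox transcription factor, was at 9.77, 11.09 and 12.27 and then at 6.73, 7.14 and 9.65, again apart, with a difference of -3.61 ± 0.36. The protocadherin genes Pcdh12 and Pcdh17 differed by -3.53 and -3.21 with no overlap. Tie1, a receptor of the angiopoietin pathway, fell by 3.35 and Cd93, a lectin-like receptor of endothelium, by 3.23. In both the overlap came from array 77 of day 60 and array 54 of day 20, for Cd93 at 13.01 and 12.95. The day 60 medians of Fam167b, Ushbp1, Kcne3, Hlx, Pcdh12, Tie1 and Pcdh17 lay below the detection filter, so the sizes of these falls are less certain than their direction. Hapln1, a link protein of the hyaluronan matrix, was below the detection filter (8.44) on all day 60 arrays, so its fall is given only as at least 1.49-fold.

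Tip cells lead a growing sprout, and genes marking them or induced by VEGF were lower at day 60 in 25 of 29 tested members (median -1.69), 24 without arrays 51 and 52. The groups did not overlap for 12 of them. Esm1, a secreted proteoglycan of tip cells, was at 10.27, 13.57 and 14.45 at day 20 and at 6.74, 8.54 and 10.69 at day 60. Array 77 (10.69) lay above array 54 (10.27) and the other arrays were apart. The difference of -4.52 ± 0.56 (SE; adjusted p = 1.7e-09) was the largest fall among the named genes, and it was -4.08 without arrays 51 and 52.

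The apelin system fell on both sides. Aplnr, the receptor, was among the brightest vessel genes at day 20 with 14.26, 15.04 and 15.20, and ranged widely at day 60 with 9.74, 11.53 and 13.21. It separated fully and fell by 3.39 ± 0.29 (adjusted p = 1e-13). Its ligand gene Apln was at 10.80, 11.33 and 12.65 and then in the narrow range of 9.89, 10.06 and 10.18, a difference of -1.5 ± 0.20.

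Kcne3, an accessory subunit of potassium channels, was at 9.96, 11.88 and 13.41 and then at 6.79, 7.96 and 9.49, with no overlap and a difference of -3.63 ± 0.41. Cxcr4, a chemokine receptor of tip cells, fell by 2.07 and Pdgfb, the ligand that recruits pericytes, by 2.11, both without overlap. The members that did not pass were the netrin receptor gene Unc5b at -0.55, Lcp2 at -0.42, Rcan1, a calcineurin regulator induced by VEGF, at -0.18, and Nrn1 at 0.15.

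Transcription factors of endothelium fell in 15 of 23 tested members and rose in 1, the flow-responsive factor gene Klf4 by 0.51, which was 0.38 (adjusted p = 0.15) without arrays 51 and 52. The SoxF factors moved together: all of them fell, Sox17 at -2.85 ± 0.28, Sox18 at -2.66 ± 0.28 and Sox7 at -1.38. Sox17 was at 12.20, 13.25 and 13.73 and then at 8.52, 10.37 and 12.19, which leaves no overlap, while for Sox18 array 77 (11.73) reached the lowest day 20 value (11.70). Of the ETS family, Ets1 fell by 2.64, Erg by 2.26, Elk3 by 1.35 and Fli1 by 1.26, while Ets2 (-0.28) and Etv2 (-0.22) did not pass. Klf2, like Klf4 a factor of flowing blood, was at -0.48 and did not pass.

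Arterial and Notch genes fell in 12 of 19 tested members. Notch4, the Notch receptor of endothelium, was at 11.80, 12.97 and 13.93 and then at 7.90, 9.28 and 11.62, with no overlap and a difference of -3.49 ± 0.37 (adjusted p = 2.2e-11). Its further probe sets were at 0.015 (most arrays below the filter) and -1.04, so the size of this fall depends on the probe set. The ligand gene Dll4 fell by 1.47 and the target genes Hey1, Hey2 and Hes1 by 1.80, 1.34 and 0.74. The receptor gene Notch1 (-0.12), the ligand gene Jag1 (-0.19) and the arterial ligand gene Efnb2 (-0.33) did not pass. In the angiopoietin pathway 3 of 7 fell, among them Tie1 and Angpt2, the destabilising ligand, by 1.84 ± 0.28, whereas the receptor gene Tek was at -0.13 ± 0.23 (adjusted p = 0.73).

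Venous and lymphatic genes fell in 8 of 15 members. The lymphatic receptor gene Flt4 fell by 1.84 and Prox1, the transcription factor that sets lymphatic identity, by 1.54. Lyve1, the hyaluronan receptor of lymphatic vessels, was at -0.06 and podoplanin (Pdpn) at 0.38, neither past the test. Ackr1, the chemokine-binding receptor of venules, rose by 0.57, though no member of this list was called as a rise without arrays 51 and 52. Genes for leukocyte adhesion on endothelium fell in 8 of 10, led by Icam2 (2.31 ± 0.37) and Vcam1 (1.46 ± 0.31). This count was 4 with the RNA ratios as covariates, against 10.8% of all genes lower in that fit. Further Vcam1 probe sets were at -0.79 and at -0.19 (adjusted p = 0.709), so the size of its fall depends on the probe set. BMP and TGF-beta genes fell in 8 of 20, including the co-receptor endoglin (Eng, by 1.80) and the receptor Acvrl1 (by 0.88), and the ligand gene Gdf2 (BMP9) rose by 0.84.

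The vessel wall changed too. Pericyte genes fell in 16 of 18 tested members, with a median of -1.57, and 12 fell without arrays 51 and 52. Rgs5, a regulator of G protein signalling that marks pericytes, was at 15.13, 15.85 and 16.38 and then at 12.49, 13.50 and 15.55. Array 77 alone at day 60 reached the day 20 range, and the difference was -2.25 ± 0.26 (adjusted p = 4.4e-10). The receptor gene Pdgfrb fell by 2.01 and the channel subunits Kcnj8 and Abcc9 by 1.88 and 1.81. Vtn (0.24) and Anpep (0.39) did not pass.

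Smooth muscle contraction genes fell in 10 of 17, with a median of -0.93. This count was 5 without arrays 51 and 52, 2 with the RNA ratios as covariates and 13 without arrays 75 and 77 of day 60, a setting in which 13.3% of all genes were lower and 12.4% higher. Myh11, the smooth muscle myosin, was at 10.78, 12.26 and 13 at day 20 and at 5.57, 9.96 and 14.29 at day 60, so that the day 60 arrays lay on both sides of the day 20 range. Its difference of -2.01 ± 0.53 (adjusted p = 0.0027) had an adjusted p of 0.161 with the ratios. Actg2, the enteric smooth muscle actin, fell by 1.86 ± 0.42, with an adjusted p of 0.0704 in that fit.

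Basement membrane genes fell in 14 of 21 and rose in 0. The collagen IV chains Col4a2 and Col4a1 fell by 2.40 and 1.71 and nidogen 2 (Nid2) was at -2.35, also a fall, while nidogen 1 (Nid1) was at -0.16 and did not pass. Among laminin chains, the endothelial chain Lama4 fell by 0.91 and the widespread chain Lamc1 by 0.88, and the chains of the epidermal laminin, Lama3 and Lamb3, were at -0.32 and -0.19 and did not pass.

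Among fibrillar collagens and dermal matrix genes, 13 of 23 fell and 4 rose. Col1a1 fell by 1.45 ± 0.24 with no overlap (14.43, 14.86 and 15.07 against 12.65, 13.31 and 14.17), and Col5a3 by 1.3. The small leucine-rich proteoglycans went both ways: biglycan (Bgn) fell by 1.21, while decorin (Dcn) and osteoglycin (Ogn) rose by 0.63 and 0.82, and lumican (Lum) rose by 1.19 with all arrays and was at 0.66 (adjusted p = 0.23) without arrays 51 and 52. Without these arrays 9 fell and 1 rose, and with the RNA ratios 6 fell and 6 rose (9.46% of all genes rose in that fit). Mfap4, a microfibril protein, was at 9.39, 11.14 and 12.40 and then at 5.56, 6.73 and 11.72, arrays 75, 77 and 79 being high at day 60 and the others low. Its difference was -3.00 ± 0.90 (adjusted p = 0.0093), and its adjusted p was 0.059 with the ratios.

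Wound matrix genes fell in 10 of 24 and metalloproteinases or their inhibitors in 5 of 18. The collagenase gene Mmp13 fell by 2.72 ± 0.51, Adam12 by 2.27 ± 0.32 and the macrophage elastase gene Mmp12 by 1.87. The day 60 median of Mmp13 (7.16) lay below the filter, so the size of its fall is uncertain. The gelatinase genes Mmp2 (0.17) and Mmp9 (0.53) did not pass. Ccn2, a matricellular protein induced by TGF-beta, fell by 1.68 ± 0.35.

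**Figure D2:**
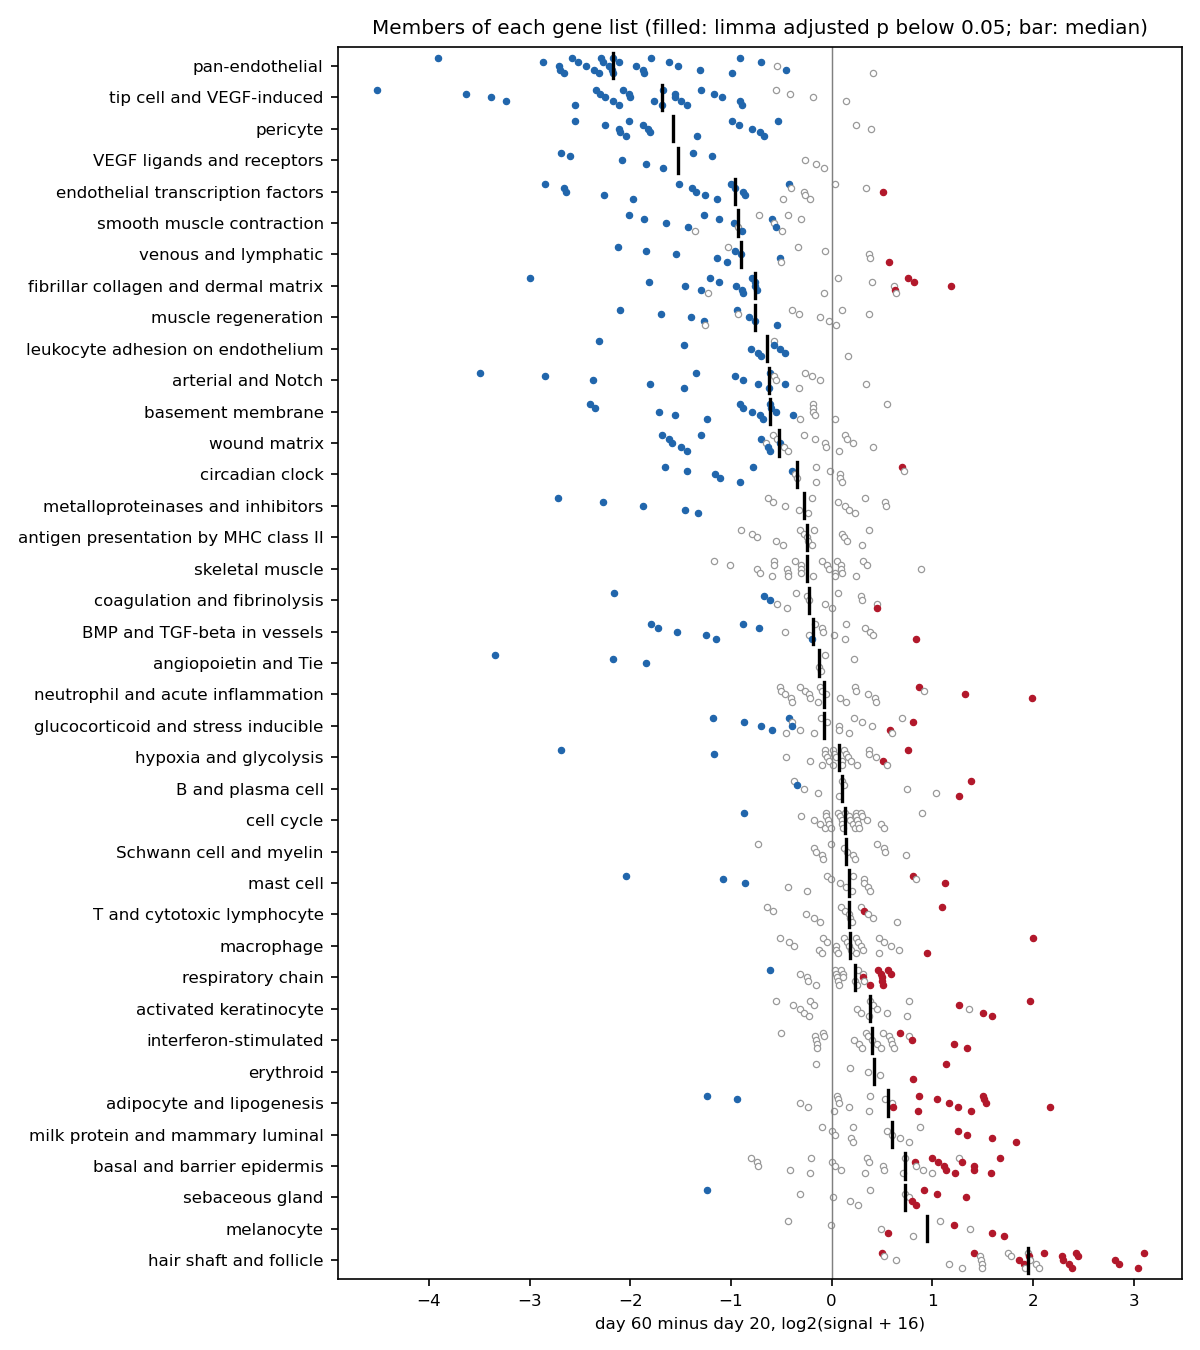
Difference between day 60 and day 20 (log2) of each tested member of 39 gene lists, with filled points at an adjusted p below 0.05 and a bar at each list's median. The pan-endothelial, tip cell and pericyte lists lie almost wholly below 0, the hair list above 0, and the skeletal muscle and MHC class II lists have 0 filled points.

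Outside the vessels, genes of the circadian clock differed as well. Of 17 members 7 fell and 1 rose, and for 6 the groups did not overlap. Per2, a repressor of the clock, was at 9.99, 10.20 and 10.60 and then at 8.32, 8.81 and 9.26, a difference of -1.44 ± 0.16 (adjusted p = 1.4e-10). Dbp, an output factor, was at 10.86, 11.62 and 12.23 and then at 9.08, 9.90 and 10.74, a difference of -1.65 ± 0.21. In both genes the arrays stood apart.

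Arntl, which codes for the activator BMAL1, moved the other way, from 9.80, 10.16 and 10.37 to 10.58, 10.85 and 10.94. It rose by 0.70 ± 0.10 (adjusted p = 3e-07), again without overlap. The repressors Per3, Nr1d1 and Nr1d2 fell by 1.10, 0.91 and 1.16, and Tef, whose promoter is shown above, by 0.78. The mean level of the list ran from 10.44 to 10.78 over the day 20 arrays and from 10.06 to 10.32 over those of day 60. Without arrays 51 and 52, 6 fell and 1 rose, and with the RNA ratios 7 fell and 2 rose. The labels used here give no hour of collection, and its part in these differences was not tested.

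Genes induced by glucocorticoids or stress fell in 6 of 22 and rose in 2, beside 13.7% and 11.9% of all genes. Without arrays 51 and 52, 3 fell and 2 rose, and with the RNA ratios 3 fell and 4 rose, so the balance turned. Fkbp5, a co-chaperone of the glucocorticoid receptor, was at 11.91, 12.10 and 12.98 and then at 10.60, 11.21 and 11.34, a separation and a difference of -1.18 ± 0.17. Per1, a gene of both lists, was at 10.39, 10.81 and 10.96 and then at 9.47, 10.26 and 11.42. Its difference of -0.39 ± 0.14 (adjusted p = 0.031) was -0.34 (adjusted p = 0.13) without arrays 51 and 52. The metallothionein genes Mt1 and Mt2 rose by 0.58 and 0.81.

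Markers of regenerating muscle fell in 8 of 17, and in 4 with the RNA ratios. Dlk1, a secreted regulator of progenitor cells, was at 10.30, 10.88 and 11.29 and then at 8.14, 8.82 and 9.29, with no overlap and a difference of -2.10 ± 0.24 (adjusted p = 1.5e-10), or -2.16 without arrays 51 and 52. The differentiation factor gene Myog fell by 0.82. Mymx, a peptide needed for myoblast fusion, is counted among the 8, but its signal was below the filter (8.44) on all 16 arrays, so no change is read from it. Mature skeletal muscle genes had 0 of 28 members called in either direction. Their mean level was 11.02 on array 79 and between 14.03 and 15.07 on the other day 60 arrays, and at day 20 it was lowest on arrays 51 and 52 (13.02 and 13.16).

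Fat genes rose in 11 of 24 members and fell in 2. Adipoq, the adipocyte hormone adiponectin, was at 11.07, 11.68 and 14.69 and then at 13.02, 14.24 and 16.42, overlapping only through array 53, the highest of day 20. It rose by 2.17 ± 0.46 (adjusted p = 0.00019), and by 1.96 without arrays 51 and 52. Its control mean was 15.22. The lipogenic enzyme genes Fasn and Scd1 rose by 1.17 and 1.05 and leptin (Lep) by 1.52, while Fabp4 (0.07) and Lpl (0.02), also abundant in fat, did not pass. Without arrays 51 and 52 only 2 members rose and 1 fell. Pparg, the master factor of fat cells, went down by 1.24 with all arrays and was at -0.71 (adjusted p = 0.33) without those 2.

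Respiratory chain genes rose in 9 of 27 and fell in 1. Uqcrc2, of complex III, rose by 0.59 with no overlap, and Sdhc, of complex II, fell by 0.61, which was -0.10 (adjusted p = 0.708) with the RNA ratios and -0.33 (adjusted p = 0.0814) in another probe set. The count was 1 up and 2 down without arrays 51 and 52, and 16 up and 0 down with the RNA ratios.

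Rises in the immune cell lists stand beside the 11.9% of all genes that rose. Macrophage genes rose in 2 of 26 (0 without arrays 51 and 52), MHC class II genes in 0 of 16, T cell genes in 2 of 16 and neutrophil genes in 3 of 24. Cd3g, a chain of the T cell receptor complex, was below the filter on all day 20 arrays (highest 8.07) and between 7.30 and 9.50 at day 60, so it rose (adjusted p = 0.0064) by an amount that is not given for so dim a signal. B and plasma cell genes rose in 2 of 11 and fell in 1, with a median of 0.10. The rises were of Tnfrsf17 (BCMA), a receptor of plasma cells, by 1.38 and the antibody joining chain Jchain by 1.27. Jchain was at 1.15 (adjusted p = 0.1) without arrays 51 and 52. The day 20 medians of Tnfrsf17 (7.68) and Jchain (8.32) lay below the filter, so the sizes of these rises are uncertain. Ptgs2, the inducible cyclooxygenase, was at 7.42, 8.74 and 9.16 and then at 9.58, 9.95 and 10.55, apart, with a rise of 1.33 ± 0.33. Interferon-stimulated genes rose in 4 of 25, and in 2 without arrays 51 and 52, Zbp1 by 1.34 and Ifit1 by 1.22, and both were also called without arrays 51 and 52. Of 18 mast cell genes 2 were higher and 3 lower, near the shares of 11.9% and 13.7% over all genes. Hdc, which makes histamine, fell by 2.04 ± 0.38 and the tryptase gene Tpsab1 by 1.08. The day 60 median of Hdc (6.72) lay below the filter, so the size of its fall is uncertain. Another Hdc probe set, above the filter on 1 array, was at -0.12 (adjusted p = 0.815, limma). The chymase genes Cma1 and Mcpt4 rose by 0.81 and 1.12, neither called without arrays 51 and 52.

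Hair shaft and follicle genes rose in 16 of 31 members with all arrays, in 1 without arrays 51 and 52 and in 28 without arrays 75 and 77, so that this count rested on single arrays of both groups. The list's mean level was 7.84 and 7.69 on arrays 51 and 52 and between 11.33 and 13.36 on the other day 20 arrays. At day 60 it was 10.88 on array 75 and between 12.83 and 14.32 on the others. Krt33a, a hair cortex keratin, was at 4.67, 11.99 and 13.70 and then at 10.26, 13.49 and 14.94, and its rise of 3.04 ± 0.99 had an adjusted p of 0.017. Idi2, an enzyme of isoprenoid synthesis, had the largest rise among named genes, 4.03 ± 1.41 (adjusted p = 0.028), from a day 20 median of 4.99 that is below the filter, so its size is uncertain. It was 3.33 (adjusted p = 0.15) without arrays 51 and 52. Tchhl1, a trichohyalin-like protein, rose by 3.10 with all arrays and was at 1.53 (adjusted p = 0.23) without them. With the RNA ratios 8 hair genes rose.

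Counts in other skin lists were also lower without arrays 51 and 52. The mean level of epidermal genes was lowest at day 20 on array 52 (10.03), while array 51 (12.51) lay within the range of the others. Epidermal genes rose in 11 of 31, in 1 without arrays 51 and 52 and in 3 with the RNA ratios. The desmosomal cadherin gene Dsc1 rose by 1.59, and by 0.97 without arrays 51 and 52. Melanocyte genes rose in 4 of 10 and activated keratinocyte genes in 4 of 21, and 0 of either list were called without arrays 51 and 52. The activated keratinocyte list too was lowest on array 52 (9.5) and not on array 51 (11.82), and the melanocyte list was lowest on arrays 51 and 52 (9.6 and 9.71). Sebaceous gland genes rose in 5 of 13 and fell in 1, while 2 rose and 0 fell without arrays 51 and 52. Mgst1, a microsomal enzyme of this list, was higher by 0.92 without overlap and by 0.81 without those arrays. Milk and mammary luminal genes rose in 4 of 15, and in 0 without arrays 51 and 52.

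**Figure D3:**
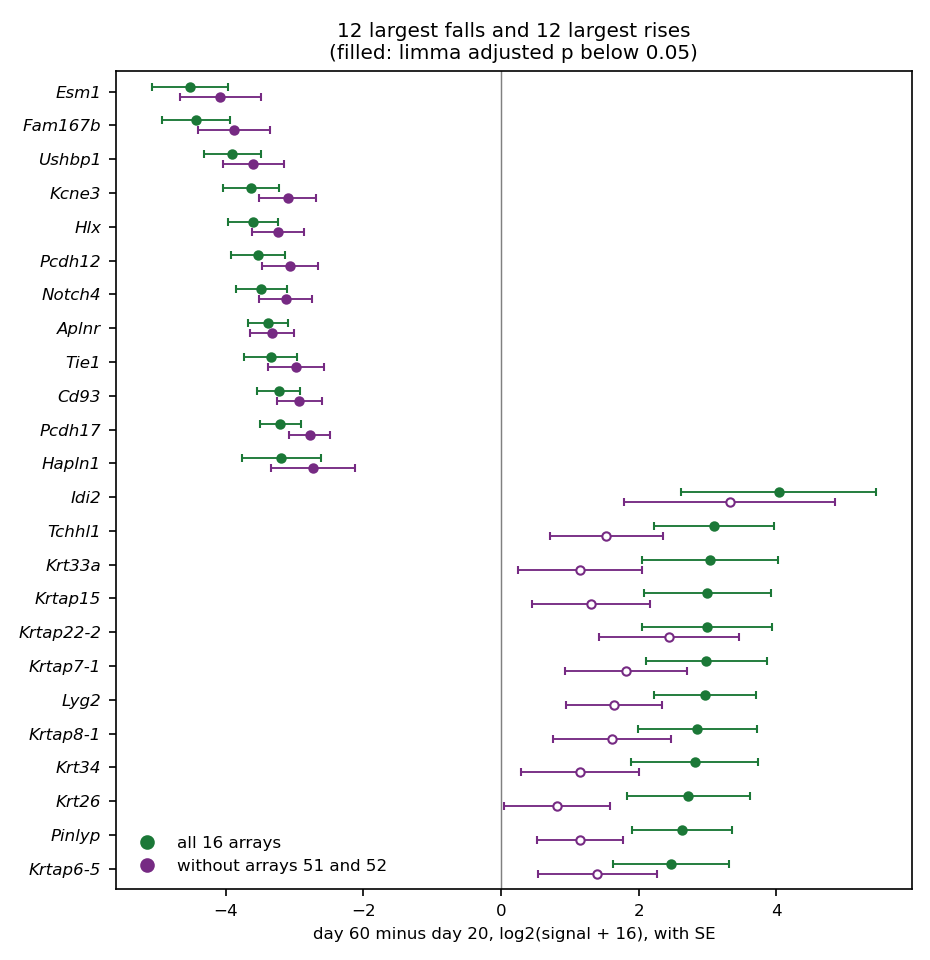
Difference between day 60 and day 20 (log2) with its SE for the 12 largest falls and the 12 largest rises, with all 16 arrays and without arrays 51 and 52. Both sets lie nearer 0 without those arrays, and the 12 falls stay called while 0 of the 12 rises do. The rises have wide errors and most shrink further than the falls, though Idi2 stays at 3.33 and Krtap22-2 at 2.45.

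Rises that were also called without arrays 51 and 52, chosen after their values were seen, included the hair keratin gene Krt33b, at 1.96 with all arrays and 1.54 (adjusted p = 0.0467) without them. Wfdc21, a whey acidic protein domain factor, was at 9.80, 10.55 and 11.13 and then at 11.17, 11.84 and 13.26, with no overlap and a rise of 1.55 ± 0.30 (adjusted p = 4.6e-05). Rnase2a, an eosinophil-associated ribonuclease, was at 8.10, 8.55 and 9.0 and then at 8.92, 10.23 and 12.19, with a slight overlap and a rise of 1.95 ± 0.44. The acute phase protein gene Orm1 rose by 1.99 and the macrophage lectin gene Cd209g by 1.86. Cxcl13, the chemokine that attracts B cells, was called only without those arrays, at 1.55 (adjusted p = 0.047) against 1.03 (adjusted p = 0.14) with all.

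Levels in control tissue and at day 5 are set beside these values as a description, with no test. The controls carry the label day 0, so they are not matched in time to day 60. The pan-endothelial list had a mean level of 10.67 ± 0.24 (SD, n = 8) in controls, 12.50 at day 5, 12.34 ± 0.65 at day 20 and 10.43 ± 0.56 at day 60. The tip cell list stood at 10.58 in controls, 12.82, 12.39 and 10.59, and the pericyte list at 10.62, 11.88, 12 and 10.67. The day 60 levels of these 3 lists were thus within 1 SD of the day 60 arrays from the control means. The day 60 level of the fat list lay below the control mean, with 13.17 in controls, 11.46 at day 5, 11.65 at day 20 and 12.22 ± 0.63 at day 60. The clock list was at 10.76, 10.08, 10.59 and 10.19.

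**Figure D4:**
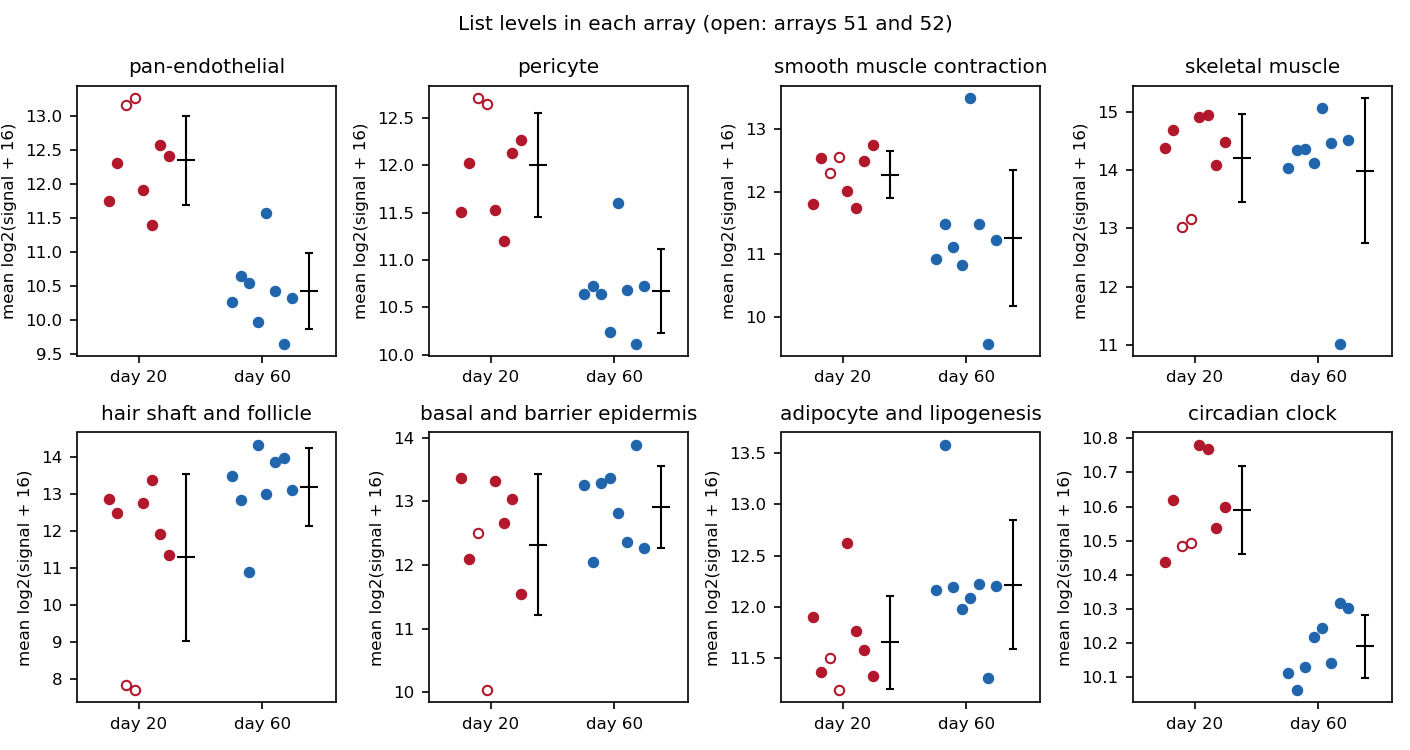
Mean level (log2(signal + 16)) of 8 gene lists on each of the 16 arrays, with bars for the mean ± SD of 8 arrays and open points for arrays 51 and 52. The vessel lists are lower at day 60, with array 77 the highest there, and the hair list shows arrays 51 and 52 near 8 and array 75 near 11.

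The step from day 20 to day 60 was also taken in the antibody arms, which share no arrays with the untreated ones. In G6-treated sites 3072 genes (20.9%) differed between the days, and in DC101-treated sites 1380 (9.38%). Pan-endothelial genes fell in 29 of 30 in G6-treated tissue (14.2% of all genes fell there) and in 20 of 30 in DC101-treated tissue (5.43%). The difference of the steps, untreated minus antibody, was then tested for each gene.

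Against G6 the step differed for 11 genes (0.0747%), 0 of them pan-endothelial, and for 0 genes without arrays 51 and 52 (1161 at an unadjusted p below 0.05, limma). Cldn15, a claudin of tight junctions, fell by 1.89 in untreated tissue and was at -0.42 ± 0.22 under G6, a difference of -1.47 (adjusted p = 0.026). Col3a1, the main reticular collagen, was at 0.06 in untreated tissue and -0.86 under G6, a difference of 0.92 (adjusted p = 0.017), though its untreated sign was negative under quantile normalization (-0.37) and in another probe set (-0.63).

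Against DC101 the step differed for 2678 genes (18.2%), 1310 more negative (8.9%) and 1368 more positive (9.29%) in untreated tissue, and for 1493 (10.1%) without arrays 51 and 52. The count was 634 in the fit holding the RNA ratios. Of the 30 pan-endothelial genes 15 fell further in untreated than in DC101-treated tissue, and 4 of the list were called without arrays 51 and 52. For tip cell genes these counts were 17 of 29 and 8. Hlx fell by 3.61 in untreated tissue and was at -1.01 ± 0.39 under DC101, a difference of -2.59 (adjusted p = 0.0004), and Cd93 by 3.23 against -1.5 under DC101, a difference of -1.73 (adjusted p = 0.0053). Both genes started lower under DC101, with day 20 means of 9.69 against 11.11 untreated for Hlx and 12.89 against 14.26 for Cd93. The day 60 means were 8.68 against 7.51 and 11.39 against 11.03. A smaller step under DC101 thus includes a lower start, and these levels were not compared by a test. Fhod1, a formin that acts on actin, fell by 3.10 without antibody and was at 0.19 ± 0.55 under DC101, a difference of -3.29 (adjusted p = 0.0013).

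The glucocorticoid and stress list differed between these arms as well, in 8 of 22 members, all more negative in untreated tissue, and in 7 without arrays 51 and 52. Depp1, a gene induced by FOXO factors, was at -0.77 in untreated tissue and 2.44 ± 0.27 under DC101, a difference of -3.21 (adjusted p = 6.1e-09). Under G6 Depp1 was at 0.61 ± 0.25, a difference of -1.38 that did not pass (adjusted p = 0.0747, limma). Per1 was at -0.39 in untreated tissue, 0.60 ± 0.14 under G6 and 1.26 ± 0.15 under DC101. Its step thus had opposite signs with and without antibody, with a difference of -1.65 from DC101 (adjusted p = 6.2e-08) and -0.99 from G6 (adjusted p = 0.017). Without arrays 51 and 52 the difference from G6 was -0.94 (adjusted p = 0.106). In the hair list 13 of 31 members had a more positive step in untreated tissue, and 1 without arrays 51 and 52.

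**Figure D5:**
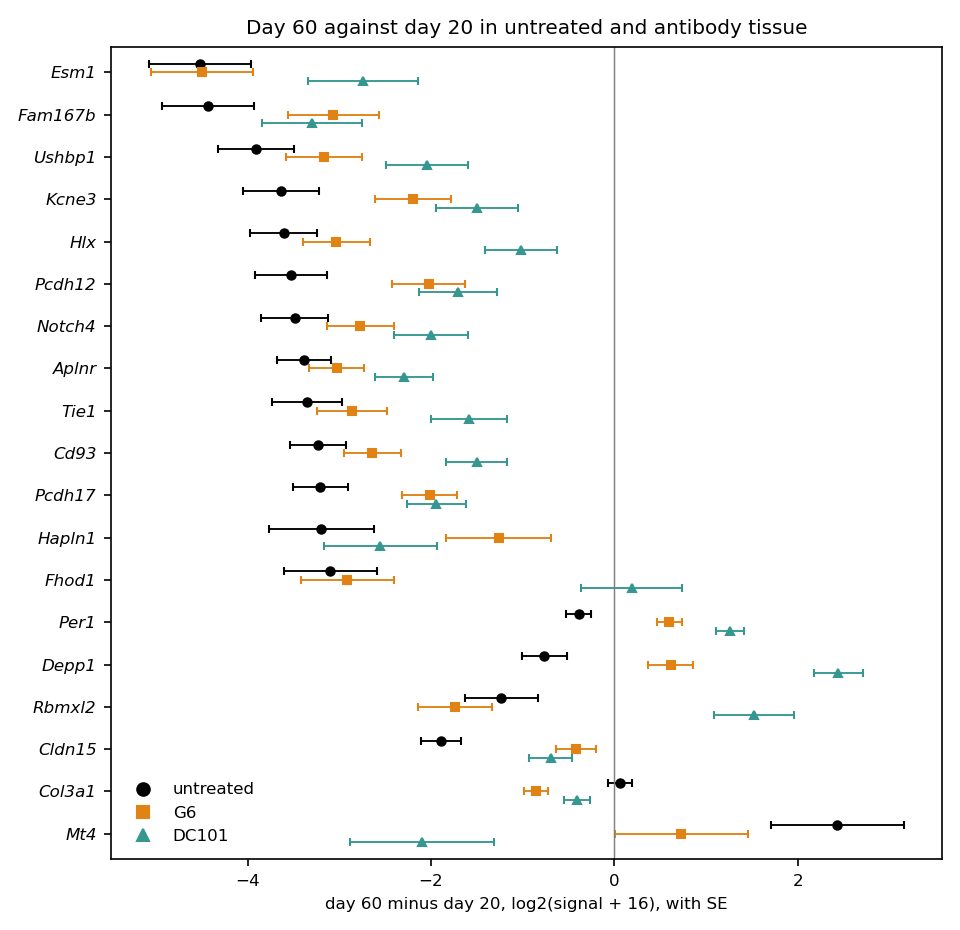
Difference between day 60 and day 20 (log2) with its SE in untreated, G6-treated and DC101-treated sites for the 12 largest untreated falls and 7 genes whose step differed from an antibody arm. For Hlx and Fhod1 the untreated and G6 points lie near each other and the DC101 point nearer 0. For Per1 and Depp1 the G6 and DC101 points both lie above 0, the DC101 point further.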

How the data were processed

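RNA of 78 flank skin samples had been hybridised to Affymetrix Mouse Genome 430 2.0 arrays, 1 per sample. The deposited values are linear intensity per probe set, made with MAS5 in GCOS 1.3, per the submitters' processing notes. As tested on the values, each array had been scaled by the authors to a mean of 1500, with the lowest and highest 2% left out, and array medians ran from 495.14 to 582.58. These are array signals, so the number of arrays limits the precision.

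Signals were taken as log2(signal + 16). Of 45101 probe sets, 34958 carry 1 gene symbol in the platform table, 932 several and 9211 none, and 34754 matched a current RefSeq gene. Probe sets with a signal above 331.2 (8.44 on the log2 scale) on at least 6 arrays were kept, and the brightest on average stood for each gene, which left 14718 genes. limma 3.58.1 in R 4.3.3 (lmFit, eBayes, Benjamini-Hochberg over all genes tested, threshold 0.05) was fitted over all 10 groups with no covariate. It was tested on simulated data with independent noise on each array, where it recovered 32% of changes of 0.5 and 83% of changes of 1. Neighbouring arrays shared no deviation in the simulation, so it cannot test the p-values where they do. Intervals marked SE are limma's.

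The 39 gene lists hold 846 entries, 791 on the array and 768 tested. The comparison, lists and tests were chosen with earlier results of these data known. Genes named by rule were Vegfa, Flt1 and Kdr, the 12 largest falls and rises, the 2 largest changes in each list and the 4 largest differences of the steps in each direction. Other members, marked or not, were chosen after their values were seen. Alternatives were the pseudocount (1 and 64), quantile normalization, no filter, other probe sets, array weights, neighbouring arrays as a block or averaged, the Actb and Gapdh ratios as covariates, only the 16 arrays, and leaving out arrays. The setting without arrays 75 and 77 was chosen after seeing the data.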

Additional observations from a re-analysis of the deposited data

Results flagged for a closer look

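Single arrays stood apart from the other 7 of their group for 31 of the gene values examined, over 174 groups of 8. Chance gives about 1 in 20 groups if the groups are independent. Most flags fell on arrays 75 and 77 in genes of the same kind, so they are not separate events. Array 75 of day 60 accounted for 13 of these. It was the lowest of its group for Idi2 (5.94), Krt33a (10.26), Krtap15 (11.76), Krtap22-2 (6.31), Krtap7-1 (9.58), Krtap8-1 (11.23), Krt34 (10.78), Krt26 (12.16), Pinlyp (12.47) and Krtap6-5 (10.15), which are mostly hair genes, and for the pigment genes Tyrp1 (10.79) and Tyr (9.06), and it was the highest for Hdc (9.86). Array 77 of day 60 accounted for 11. It was the highest of its group for the vessel genes Cd93 (13.01), Sox18 (11.73), Egfl7 (11.85), Mcam (12.58), Rgs5 (15.55) and Flt4 (11.9), and Tgfb3 (11.65), Col12a1 (12.16), Actg2 (13.33) and Mymx (7.76). For the vasodilator peptide gene Adm (10.14) it was the lowest. Array 52 of day 20 was the lowest for Klk7 (9.3), Dsc1 (10.25) and Ptgs2 (7.42). Array 54 of day 20 was the lowest for Aplnr (14.26) and the highest for Car2 (11.29), and array 74 of day 60 the highest for Adipoq (16.42) and Pparg (10.86).

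The step from day 20 to day 60 differed between untreated and G6-treated tissue for 6 named genes, given as untreated minus antibody: Cldn15 (-1.47), Mcf2l (-1.18), Per1 (-0.99), Sybu (-0.92), Pdlim4 (1.01) and Col3a1 (0.92). Against DC101 the vessel genes were more negative without antibody: Ushbp1 (-1.87), Kcne3 (-2.14), Hlx (-2.59), Pcdh12 (-1.82), Notch4 (-1.49), Tie1 (-1.76), Cd93 (-1.73) and Pcdh17 (-1.26). The genes Idi2 (6.11), Tchhl1 (3.71), Krt33a (4.6), Krtap15 (4.6), Krtap22-2 (4.08), Krtap7-1 (4.53), Lyg2 (3.64), Krtap8-1 (4.38), Krt34 (4.07), Pinlyp (3.22), Krtap6-5 (3.48) and Mt4 (4.53) were more positive. Against DC101, Cldn15 (-1.2), Per1 (-1.65), Fhod1 (-3.29), Depp1 (-3.21), Hcls1 (-2.78) and Rbmxl2 (-2.75, with all untreated day 60 arrays below the filter) were more negative and Pdlim4 (0.58) more positive without antibody. Many of these differences depended on arrays 51 and 52. Without them no difference from G6 was called. Against DC101 only Hlx, Cd93, Mt4, Per1, Fhod1, Depp1, Hcls1 and Rbmxl2 of the genes named in this paragraph were then called.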

How the results depend on the processing

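The count of genes differing between day 60 and day 20 (3776) was 1929 without arrays 51 and 52 and 2450 with neighbouring arrays averaged. Lower genes (2018) were 1232, and higher genes (1758) were 697 and 979, in the same order; changes of at least 2-fold (857) were 386 without arrays 51 and 52. Under the other settings that kept all 16 arrays, and without arrays 75 and 77, these counts stayed within 1.5 times. Leaving out each array in turn gave 2696 to 4181 genes in all, 1587 to 2165 lower, 1109 to 2016 higher and 554 to 1075 changed at least 2-fold, always lowest without array 52, which moved the last of these and the higher genes by over 1.5 times, and highest without array 54. The difference of the steps from G6 (11 genes) was called for 6 genes with no filter, 205 with array weights, 0 with neighbours averaged (1087 at an unadjusted p below 0.05, limma), 4 with them as a random block, 5 with the RNA ratios, 0 without arrays 51 and 52, 7 without arrays 75 and 77 and 1 to 66 leaving out single arrays (lowest without array 52, highest without array 54). From DC101 (2678 genes) it was called for 4964 with array weights, 1219 with neighbours averaged, 634 with the RNA ratios, 1493 without arrays 51 and 52 and 2056 to 3115 leaving out single arrays. Of 108 gene results, 34 lost their call without arrays 51 and 52, 26 with neighbours averaged, 22 with only the 16 arrays, 20 with the RNA ratios, 20 without array 51 alone, 18 without array 52 alone, 9 without arrays 75 and 77 and 7 under the random block. Signs reversed for Col3a1 under quantile normalization (-0.37, adjusted p = 0.0116), the mean of probe sets (-0.28) and another probe set (-0.63), and in other probe sets for Vegfa (0.31), Tsc22d3 (0.0071 and 0.045), Notch4 (0.015), Col12a1 (0.58 and 0.25), Cd8a (-0.15), Thrsp (-0.26), Fkbp5 (0.11) and Tfrc (-0.13). The cause was not tested. No paired analysis was possible because the running numbers of the arrays are not shared between groups. Signal below the filter on every array of a group limits Hapln1, Cd3g, Mymx and Rbmxl2, and a group median below it limits the size of several of the largest falls and rises.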

Other observations

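In the lists not described above, the counts stand beside 13.7% of all genes lower and 11.9% higher. Of 15 coagulation and fibrinolysis genes 3 fell and 1 rose: the thrombin receptor gene F2r fell by 2.16 ± 0.32, the urokinase receptor gene Plaur by 0.67 and the tissue factor inhibitor gene Tfpi by 0.61, and Anxa2, a surface binder of plasminogen, rose by 0.45 without overlap. Plaur and Tfpi were not called without arrays 51 and 52, at -0.41 (adjusted p = 0.11) and -0.39 (adjusted p = 0.22). Among 26 hypoxia and glycolysis genes 2 fell, Vegfa and the vasodilator peptide gene Adm (by 1.17), and 2 rose, Higd1a by 0.51 and Aldoc by 0.76. Neither rise was called without arrays 51 and 52, at 0.34 (adjusted p = 0.149) and 0.47 (adjusted p = 0.349), and 5 members rose with the RNA ratios. Of 31 cell cycle genes Ccnd1 alone was called, with a fall of 0.87 ± 0.19, and of 14 Schwann cell and myelin genes 0 were. Tfrc, the transferrin receptor, and Car2, a carbonic anhydrase of red cells and other tissues, rose by 0.81 and 1.14 in the erythroid list of 6. No other Tfrc probe set was called. The brightest of these, above the filter on 72 arrays, was at 0.16 (adjusted p = 0.599).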
